A study of Mus musculus with 4 samples.

Results

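The genes examined here encode the proteasome, the protease that degrades ubiquitin-tagged proteins. They are the protein-coding genes of the authors' table whose symbol begins with Psm, one of the letters a to g, and a digit. The rule gave 48 genes, out of 18378 rows in that table and 49585 genes counted in the libraries, and it uses the gene's name and type only. The libraries came from C2C12, a mouse myoblast line of strain C3H that fuses into myotubes when serum is lowered. One group carried a retrovirus that overexpresses C/EBPβ, a leucine zipper transcription factor, and the other carried the empty vector. Both groups went through G418 selection for 7 days, were kept as pools of stable cells, grew for 2 days and then differentiated for 2 days in 2% horse serum. The question is what more C/EBPβ does to the RNA of proteasome genes in myoblasts under differentiation, and the answer speaks only for virus-driven C/EBPβ in drug-selected pools of 1 cell line.

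The proteasome is a barrel of stacked rings, the core particle, closed at its ends by regulatory caps. The outer rings are built from the Psma subunits, whose tails gate the entry, and the inner rings from the Psmb subunits, some of which carry the cutting sites. Psmb5, Psmb6 and Psmb7 are the constitutive cutting subunits, and Psmb8, Psmb9 and Psmb10 are their counterparts in the immunoproteasome, which interferon gamma is known to induce and which shapes the peptides shown on MHC class I. The regulatory particle holds a ring of ATPases (Psmc) that unfold substrates and further subunits (Psmd) that bind and strip ubiquitin. Psme proteins form other caps, the activators, and the Psmg proteins and a few Psmd proteins are assembly chaperones. In muscle the ubiquitin and proteasome system is known for breaking down contractile proteins during atrophy.

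Each immune cutting subunit replaces 1 constitutive subunit in the core, so a fragment of one could be taken for the other only where their sequences match. For this reason the most alike 60 coding bases of each exchange pair are shown, where only stretches that begin on a codon in both genes were compared. They are from GENCODE M21 on GRCm38, 5′ to 3′ on the coding strand, with the bases that differ within the pair in capitals. Psmb8 and Psmb5 come from chr17:34200232-34200731 (plus strand) and chr14:54614468-54616560 (minus strand), each across 2 exons.
Psmb8: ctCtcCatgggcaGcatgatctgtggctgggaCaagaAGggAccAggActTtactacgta
Psmb5: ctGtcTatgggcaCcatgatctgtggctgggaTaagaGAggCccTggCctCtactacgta
Psmb9 and Psmb6 come from 1 exon each, at chr17:34183141-34183200 (minus strand) and chr11:70527212-70527271 (plus strand).
Psmb9: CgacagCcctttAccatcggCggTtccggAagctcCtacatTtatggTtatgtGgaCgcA
Psmb6: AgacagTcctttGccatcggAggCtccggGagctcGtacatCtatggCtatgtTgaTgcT
Psmb10 comes from chr8:105937345-105937516 (minus strand) and Psmb7 from chr2:38640177-38642200 (minus strand), each across 2 exons.
Psmb10: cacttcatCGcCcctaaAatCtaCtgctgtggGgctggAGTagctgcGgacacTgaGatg
Psmb7: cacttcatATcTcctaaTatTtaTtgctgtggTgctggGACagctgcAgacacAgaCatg
Even in these stretches 10, 12 and 13 of 60 bases differ, and over the whole coding sequence 63.5%, 61.6% and 62.2% of aligned positions are identical. The longest uninterrupted match is 18 bases for Psmb8 and Psmb5, 11 for Psmb9 and Psmb6 and 15 for Psmb10 and Psmb7. No match within a pair reaches 50 bases, the window length used for the shares of sequence given with the results.

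Most proteasome genes were lower with C/EBPβ, while a few genes of the immune form were higher. Of the 48 genes, 31 fell and 3 rose (edgeR's quasi-likelihood test, Benjamini-Hochberg adjusted over 15886 genes, threshold 0.05), and 14 did not pass. Among all genes tested 20.9% were called lower, 22.3% higher and 43.2% either way. The 3 genes that rose were Psmb8, Psmb9 and the activator Psme1. Of these, Psmb8 and Psmb9 passed the filter on low counts through the C/EBPβ libraries alone. The median log2 fold change was -0.38 over the 48 genes, against 0.01 over all genes tested, and 41 of the 48 values were negative. In 37 genes both C/EBPβ libraries lay below both empty vector libraries, an arrangement found in 36.7% of all genes tested. In 5 genes they lay above, found in 38.4% of all genes, and in 6 the groups overlapped. Summed over the 48 genes, the level was 4694 and 5176 CPM in the C/EBPβ libraries, against 6403 and 6839 CPM in the empty vector libraries, 25.5% lower on the means. CPM is the count of a gene's fragments relative to all assigned fragments of the library, with library sizes scaled by TMM. In bulk RNA, fewer cells of a type and less RNA per cell cannot be told apart. All 3 rises stayed past the threshold in every alternative run, but without empty vector library 2 only 15 genes were called lower.

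**Figure D1:**
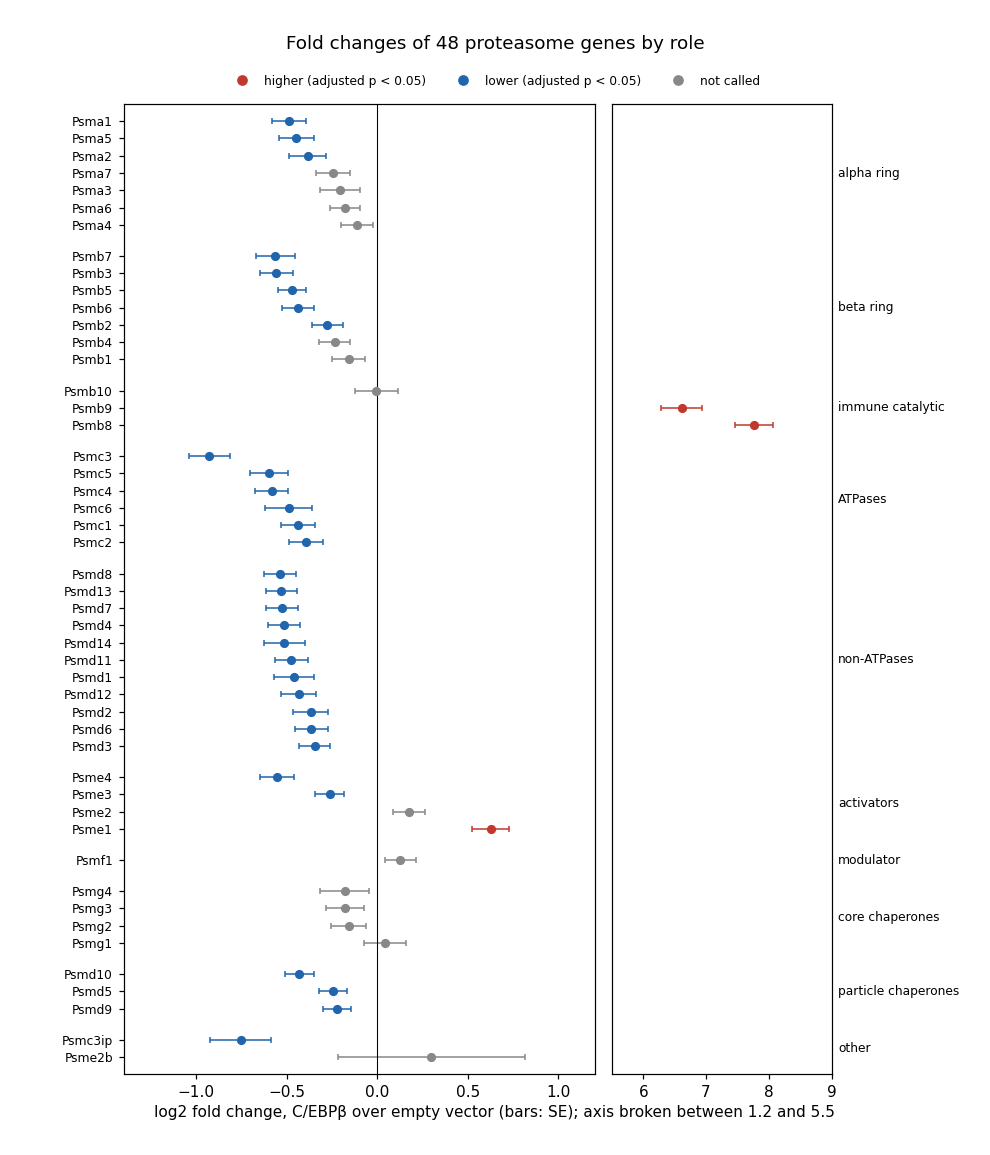
Log2 fold change of each of the 48 proteasome genes, C/EBPβ over empty vector, with its standard error, grouped by role on a broken horizontal axis. Psmb8 and Psmb9 stand alone at 7.76 and 6.61, and the 17 regulatory particle genes lie between -0.93 and -0.34.

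Psmb8 and Psmb9, the immune counterparts of Psmb5 and Psmb6, were nearly silent in empty vector cells and clearly detected with C/EBPβ. Psmb8 (ENSMUSG00000024338, chromosome 17, 34197721 to 34201454) had 649 and 421 fragments in the C/EBPβ libraries, against 1 and 4 in the empty vector libraries. That is 12.4 and 11.5 CPM with C/EBPβ and 0.0224 and 0.0791 CPM with the empty vector. The groups do not come near each other, and with 5 fragments in all the empty vector level is known only roughly. The ratio was 229, with a 95% interval of 97.9 to 708 that covers counting error only. The fitted log2 fold change was 7.76 (SE 0.30, adjusted p = 2.35e-06, edgeR), rank 31 of 15886 when genes are ordered from the largest rise. Psmb8 passed the filter on low counts through the C/EBPβ libraries alone, so its adjusted p and rank are not independent support for the rise.

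Psmb9 (ENSMUSG00000096727, chromosome 17, 34181988 to 34187764) had 267 and 209 fragments with C/EBPβ, against 3 and 2 with the empty vector. Its level was 5.11 and 5.72 CPM in the C/EBPβ libraries and 0.0673 and 0.0395 CPM in the empty vector libraries. It showed the same arrangement as Psmb8 at a lower level. The ratio was 102 (95% counting interval 43.4 to 316), with a fitted log2 fold change of 6.61 (SE 0.33, adjusted p = 7.02e-06, edgeR), rank 58. Psmb9 also passed the filter on low counts through the C/EBPβ libraries alone, so the same limit holds for its adjusted p and rank.

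Psmb10, the immune counterpart of Psmb7, behaved otherwise. It had 11.5 and 10.3 CPM in the C/EBPβ libraries and 10.9 and 11.03 CPM in the empty vector libraries, and the groups overlapped. Its log2 fold change was -0.01 with a 95% interval of -0.28 to 0.27 (adjusted p = 0.972, edgeR). Psmb10 lies on chromosome 8, apart from Psmb8 and Psmb9, which are neighbours within the MHC.

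The 3 constitutive cutting subunits all fell. Psmb5, the chymotrypsin-like subunit, had 36.2 and 38.9 CPM with C/EBPβ, against 51.6 and 52.5 CPM with the empty vector (log2 fold change -0.47, SE 0.08, adjusted p = 0.00211). Psmb6, the caspase-like subunit, had 115 and 122 CPM with C/EBPβ, against 153 and 168 CPM with the empty vector (log2 fold change -0.44, SE 0.09, adjusted p = 0.00477). Psmb7, the trypsin-like subunit, had 135 and 158 CPM with C/EBPβ, against 202 and 229 CPM with the empty vector (log2 fold change -0.56, SE 0.11, adjusted p = 0.00428). In each of the 3 genes both C/EBPβ libraries lay below both empty vector libraries, as in 36.7% of all genes tested. All 3 calls held in every alternative run. Psmb5 shares 54.1% of its 50-base windows with other annotated transcripts, chiefly the pseudogene Gm3375, so its level may be undercounted.

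**Figure D2:**
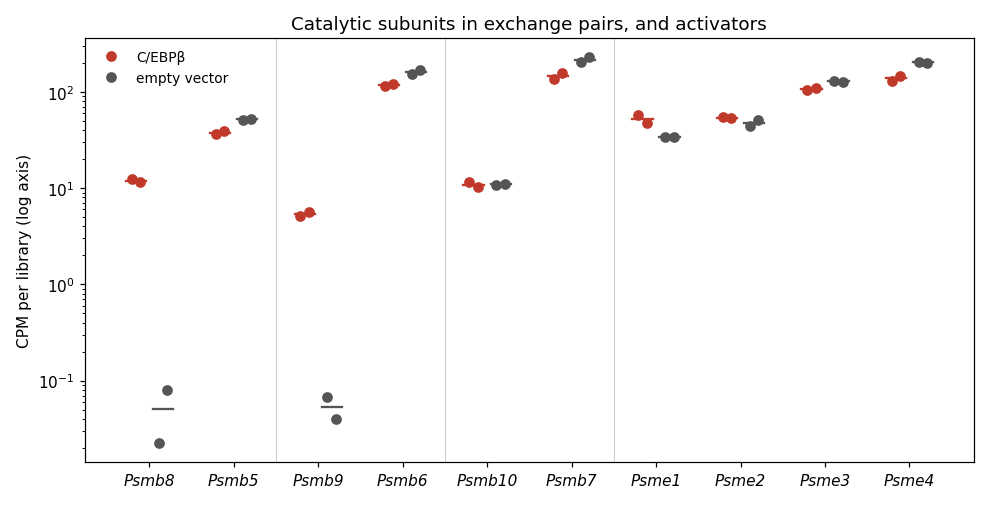
CPM in each library, on a log axis, of the 3 exchange pairs of cutting subunits and of the 4 activators, with short lines at the group means. Psmb8 lies at a mean of 11.97 CPM with C/EBPβ and 0.0508 CPM with the empty vector, Psmb9 at 5.41 and 0.0534 CPM in the same groups, while Psmb10 overlaps.

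The immune subunits were a small share of the cutting subunits' RNA in both groups. Psmb10, the largest of them per exon length, was not called. In CPM, Psmb8 lay slightly above Psmb10 with C/EBPβ (means 11.97 and 10.90). Per length (RPKM, CPM per kilobase of the gene's exons), the immune subunits made up 8.18% and 7.04% of the 6 genes' summed level in the C/EBPβ libraries, against 3.11% and 2.91% in the empty vector libraries. In the C/EBPβ libraries Psmb8 was 9.84% and 8.61% of the sum of Psmb8 and Psmb5, against 0.0138% and 0.0479% in the empty vector libraries. Psmb9 was 2.22% and 2.34% of the sum of Psmb9 and Psmb6 with C/EBPβ, against 0.0225% and 0.0121% with the empty vector. Psmb10 was 14.7% and 11.6% of the sum of Psmb10 and Psmb7 with C/EBPβ, against 9.76% and 8.80% with the empty vector; of these genes Psmb7 fell and Psmb10 did not pass the test. The log2 ratio of summed immune to summed constitutive RPKM was -3.61 ± 0.17 with C/EBPβ and -5.01 ± 0.07 with the empty vector (SD, n = 2 each), a difference of 1.41 or 2.65-fold. The libraries of the groups did not overlap, and the exact permutation test gave p = 0.333 (2-sided), the smallest p that 4 libraries allow. The mean of the 3 pairwise log2 ratios, which weights Psmb8 and Psmb9 as much as Psmb10, differed by 5.44. That value is uncertain, since the ratios of Psmb8 and Psmb9 rest on few empty vector fragments. Those 2 ratios differed by 8.62 and 7.15, and that of Psmb10 to Psmb7 by 0.55. RPKM divides by all annotated exon bases, 3659 for Psmb9 and 871 for Psmb5, so shares depend on which transcripts the cells use.

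The activators split. Psme1 and Psme2 encode the interferon-inducible cap that assembles as a mixed ring, and they lie close together on chromosome 14. Psme1 (ENSMUSG00000022216, chromosome 14, 55578123 to 55581529) had 57.5 and 47.6 CPM with C/EBPβ, against 33.7 and 34.4 CPM with the empty vector. Both C/EBPβ libraries were higher, and the rise passed the test (log2 fold change 0.63, SE 0.10, adjusted p = 0.00193, edgeR). Psme2 had 54.2 and 53.0 CPM with C/EBPβ, against 44.1 and 50.7 CPM with the empty vector, a log2 fold change of 0.18 with a 95% interval of -0.03 to 0.38 (adjusted p = 0.141). Psme2 shares 28.3% of its 50-base windows with other transcripts, most with its copy Psme2b. Psme3, which forms a separate cap found in the nucleus, had 103 and 110 CPM with C/EBPβ, against 129 and 127 CPM with the empty vector (log2 fold change -0.26, SE 0.08, adjusted p = 0.0286). Psme4, a large single-chain activator linked to histone degradation, had 129 and 147 CPM with C/EBPβ, against 204 and 202 CPM with the empty vector (log2 fold change -0.55, SE 0.09, adjusted p = 0.00235). Both fell, in contrast to Psme1, and both C/EBPβ libraries lay below both empty vector libraries in each, as in 36.7% of all genes. Among alternatives, the calls of Psme1 and Psme4 held in each, while that of Psme3 was lost with library totals alone and in 3 of the 4 fits that left out 1 library. The log2 ratio of Psme1 to Psme2 RPKM was -0.36 ± 0.17 with C/EBPβ and -0.80 ± 0.12 with the empty vector (SD, n = 2 each; exact permutation p = 0.333, the smallest possible).

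In the core particle the constitutive subunits were lower throughout, though not all by enough to pass the test. Of 14 genes, 8 fell and none rose, where 20.9% of all genes were called lower and 22.3% higher. The median log2 fold change of the 14 was -0.33. In the alpha ring, which frames the gate, 3 of 7 fell: Psma1 (-0.49), Psma5 (-0.45) and Psma2 (-0.39). Psma1 had 63.5 and 71.6 CPM with C/EBPβ, against 89.2 and 99.8 CPM with the empty vector. Psma7, Psma3, Psma6 and Psma4 had log2 fold changes of -0.24, -0.21, -0.18 and -0.11 that did not pass (adjusted p = 0.0672 to 0.344), and Psma3 and Psma4 overlapped between the groups. In the beta ring 5 of 7 fell, the cutting subunits together with Psmb3 (-0.56) and Psmb2 (-0.28). Psmb3, a structural subunit, had 73.2 and 81.8 CPM with C/EBPβ, against 109 and 120 CPM with the empty vector. Psmb4 and Psmb1, the remaining structural subunits, had log2 fold changes of -0.24 (adjusted p = 0.0538) and -0.16 (adjusted p = 0.195). The proportion of alpha to beta ring overlapped between the groups: the log2 ratio of their summed RPKM was -0.37 ± 0.05 with C/EBPβ and -0.38 ± 0.01 with the empty vector (SD, n = 2 each), a difference of 0.00 (exact permutation p = 1). Without empty vector library 2, 5 of the 14 genes were called. Psma5 shares 49.1% of its windows with other transcripts, and Psma3, Psma4 and Psmb3 share 11.6% to 17.8%.

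In the regulatory particle all 17 genes fell, from -0.93 for Psmc3 to -0.34 for Psmd3, with a median of -0.49 and no overlap between the groups in any. Among all genes tested 20.9% were called lower. Both C/EBPβ libraries lay below both empty vector libraries in 36.7% of all genes, so that arrangement is common with 2 libraries a group. All 6 ATPases were lower (median -0.54). Psmc3 stood apart, with 284 and 324 CPM in the C/EBPβ libraries against 550 and 606 CPM in the empty vector libraries, 1.90-fold higher in the empty vector cells (log2 fold change -0.93, SE 0.11, adjusted p = 0.00049, edgeR). Psmc5 followed with 126 and 143 CPM with C/EBPβ, against 190 and 217 CPM with the empty vector (log2 fold change -0.60, SE 0.10, adjusted p = 0.00251). Psmc4, Psmc6, Psmc1 and Psmc2 had log2 fold changes of -0.58, -0.49, -0.44 and -0.39. Relative to the other 5 ATPases, the log2 ratio of Psmc3 RPKM was 0.72 and 0.73 in the C/EBPβ libraries, against 1.16 and 1.14 in the empty vector libraries, a difference of -0.43 (exact permutation p = 0.333, the smallest possible).

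All 11 non-ATPase subunits fell within a narrow band, -0.54 to -0.34, with a median of -0.48. Psmd8, a lid subunit, had 201 and 216 CPM with C/EBPβ, against 307 and 299 CPM with the empty vector (log2 fold change -0.54, SE 0.09, adjusted p = 0.00224). Psmd13, also of the lid, had 87.5 and 97.4 CPM with C/EBPβ, against 132 and 135 CPM with the empty vector (log2 fold change -0.53, SE 0.09, adjusted p = 0.00185). The groups did not overlap in either. The ubiquitin receptor Psmd4 was at -0.52, the deubiquitinase Psmd14 at -0.51 and its partner Psmd7 at -0.53. The scaffold subunits Psmd1 and Psmd2 were at -0.46 and -0.37, and the lid subunits Psmd11, Psmd12, Psmd6 and Psmd3 at -0.48, -0.43, -0.36 and -0.34. These counts rest in part on 1 library: without empty vector library 2, 8 of the 17 genes were called (Psmc3, Psmc4, Psmc5, Psmd4, Psmd7, Psmd8, Psmd11 and Psmd13), with no change of direction in any. The sharing of windows reached 14.1% for Psmc1 and 17.8% for Psmd2.

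**Figure D3:**
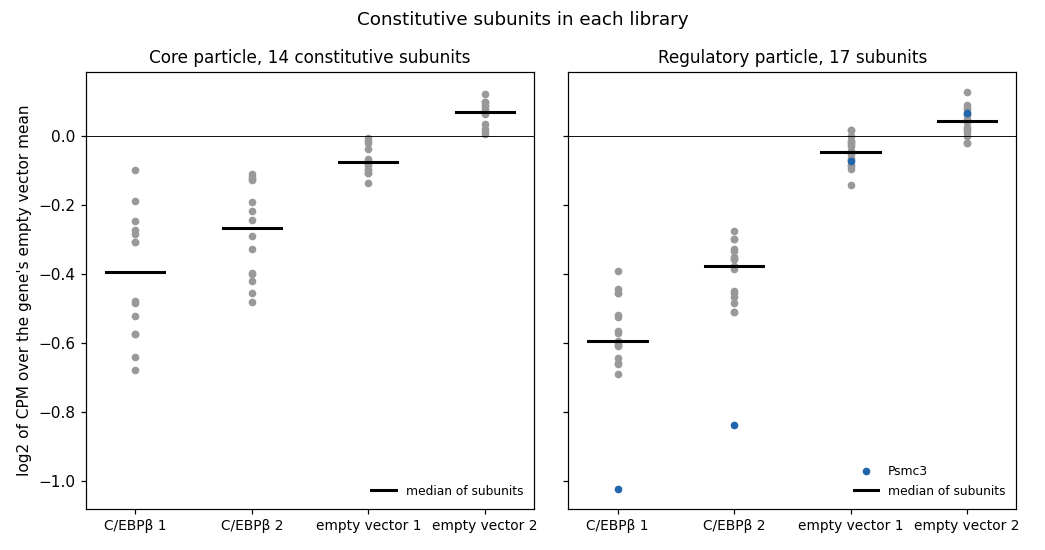
Log2 of CPM over the gene's empty vector mean, for each of 14 constitutive core subunits and 17 regulatory particle subunits in each library, with black lines at the median of the subunits and Psmc3 in blue. Every point of the C/EBPβ libraries lies below 0, and the median of the regulatory particle lies below that of the core in both.

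Set side by side, the regulatory particle was lower than the core in the C/EBPβ libraries relative to the empty vector libraries. Summed RPKM of the core was 894 and 972 with C/EBPβ, against 1108 and 1210 with the empty vector, 19.5% lower on the means. Summed RPKM of the regulatory particle was 954 and 1077 with C/EBPβ, against 1421 and 1528 with the empty vector, 31.1% lower. The log2 ratio of core to regulatory particle was -0.10 ± 0.04 with C/EBPβ and -0.34 ± 0.02 with the empty vector (SD, n = 2 each), a difference of 0.24 or 1.18-fold, with no overlap between the groups (exact permutation p = 0.333, the smallest possible). Leaving the immune subunits out of the core gave 0.23, and leaving Psmc3 out of the regulatory particle gave 0.18. The mean of log2 RPKM gave 1.10 with Psmb8 and Psmb9 in the core and 0.16 without the immune subunits, so the larger value came from those genes. Within the regulatory particle the log2 ratio of ATPases to non-ATPases was 0.02 ± 0.03 with C/EBPβ and 0.17 ± 0.08 with the empty vector (SD, n = 2 each; exact permutation p = 0.333).

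**Figure D4:**
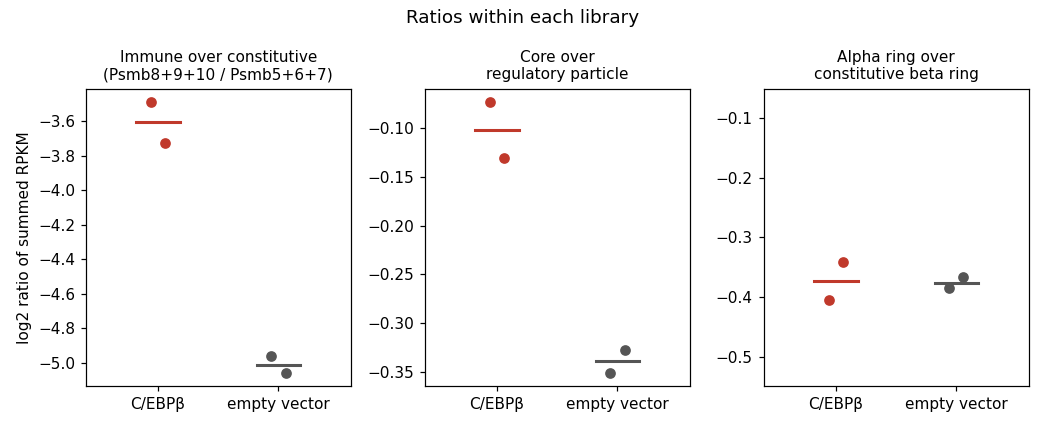
Log2 ratios of summed RPKM within each library, with short lines at the group means; each panel has its own vertical range, which does not start at 0. The immune over constitutive ratio lies at -3.49 and -3.72 with C/EBPβ and at -4.96 and -5.06 with the empty vector, while the alpha over beta ring ratio overlaps.

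The 3 chaperones that help assemble the ATPase ring all fell, with a median log2 fold change of -0.24, where 20.9% of all genes were called lower. Psmd10 had 30.7 and 32.9 CPM with C/EBPβ, against 42.1 and 43.6 CPM with the empty vector (log2 fold change -0.43, SE 0.08, adjusted p = 0.00414). Psmd5 and Psmd9 had log2 fold changes of -0.24 (adjusted p = 0.035) and -0.22 (adjusted p = 0.0491), and both calls were lost in several alternatives. None of the 4 chaperones of the core rings passed the test. Psmg2, Psmg3 and Psmg4 had log2 fold changes of -0.16, -0.18 and -0.18, and Psmg1 of 0.04 (adjusted p = 0.216 to 0.79). Psmf1, which inhibits the core in vitro, had 38.3 and 36.3 CPM with C/EBPβ, against 32.8 and 35.5 CPM with the empty vector, a log2 fold change of 0.13 (95% interval -0.07 to 0.33, adjusted p = 0.267).

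The rule also took up a gene that is related by name alone and a paralog copy. Psmc3ip, a cofactor of meiotic recombination named for binding Psmc3, had 4.04 and 3.97 CPM with C/EBPβ, against 5.99 and 7.51 CPM with the empty vector (log2 fold change -0.76, SE 0.17, adjusted p = 0.00816), a call lost without empty vector library 2. Psme2b, the copy of Psme2, had 15 and 8 fragments with C/EBPβ, against 5 and 15 with the empty vector, and 69.3% of its windows are shared. Without these genes, 30 of 46 fell and 3 rose. Outside the rule's table, the testis-specific core subunit Psma8 had 0 fragments in all 4 libraries, and the thymic subunit Psmb11 had 0 and 0 with C/EBPβ and 1 and 1 with the empty vector.

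Per length, the genes at the top of the order were the same in both groups, with Psmc3 in another place. With C/EBPβ the highest means were Psmb1 at 174 ± 5.25 RPKM, Psma2 at 139 ± 13.3, Psmc1 at 123 ± 10.2 and Psmc3 at 117 ± 10.6 (SD, n = 2). Psmc3 and Psmc1 did not differ beyond their spread. With the empty vector Psmc3 stood highest at 222 ± 15.1 RPKM, ahead of Psmb1 at 194 ± 14.3, Psma2 at 182 ± 16.7 and Psmc1 at 166 ± 6.67. Neighbours in that order lay within 2 SD of each other. The immune subunits were at the low end: Psmb10 had 6.40 ± 0.515 RPKM with C/EBPβ and 6.43 ± 0.0536 RPKM with the empty vector. Psmb8 had 4.37 ± 0.235 RPKM with C/EBPβ and 0.0186 ± 0.0146 RPKM with the empty vector. Psmb9 had 1.48 ± 0.117 RPKM with C/EBPβ and 0.0146 ± 0.00537 RPKM with the empty vector.

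Promoters of these genes were searched for letters of a few factors' sites, since the constitutive genes moved together and Psmb8 and Psmb9 moved the other way. RefSeq (GRCm38.p6) gave 44 windows of 250 bases before a start for 41 of the 48 genes, and both strands were searched. TGACNNNGC, the core of the antioxidant response element used by Nfe2l1 and Nfe2l2, stood in 11.4% of the members' windows and 10.2% of all 32851 windows. TTCNNNGAA, the core of the gamma-activated site, stood in 4.55% of the members' windows and 7.02% of all. Its member windows were those of Psmb8, which rose, and Psmg1, which was not called (log2 fold change 0.04). The core of the interferon-stimulated response element, GAAA and GAAA with 2 bases between them, stood in 6.82% of the members' windows and 2.98% of all; the 3 windows were those of Psmb3, Psmd4 and Psmd9, which all fell. TTGCNNAA, of the C/EBP site, stood in 6.82% of the members' windows and 9.56% of all, and CCAAT in 31.8% of the members' windows and 33.8% of all. These shares rest on 2 to 14 windows each, and a match is not a binding site. Of all these letters Psmb9 matched CCAAT alone and Psmb8 matched TTCNNNGAA alone. The matches of TTCNNNGAA and TGACNNNGC in cutting subunits are shown with the letters in capitals, 5′ to 3′ toward the gene. That of Psmb8 lies at chr17:34198088-34198116 (plus strand), 97 to 89 bases before the RefSeq start of its window, which lies downstream of the first base of Psmb8 in the count files.
Psmb8 (TTCNNNGAA): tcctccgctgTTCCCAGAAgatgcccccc
Those of Psmb5 and Psmb6 lie at chr14:54618024-54618052 (minus strand) and chr11:70525338-70525356 (plus strand), and that of Psmb6 ends at the start itself.
Psmb5 (TGACNNNGC): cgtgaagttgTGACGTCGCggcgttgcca
Psmb6 (TGACNNNGC): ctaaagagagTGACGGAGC

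Psmb8 and Psmb9 lie in the MHC beside the peptide transporter genes, and the genes around them moved the same way. Within 50 kb of the pair 7 of 7 tested genes rose, Psmb8 and Psmb9 included, where 22.3% of all genes were called higher. Psmb8, Psmb9, H2-DMb1 and H2-DMb2 had at most 4 fragments in any empty vector library. They passed the filter on low counts through the C/EBPβ libraries alone, so the 7 of 7 is not a test of the region. Tap1, Tap2 and H2-DMa were counted in both groups. Tap1, which forms the peptide transporter with Tap2 and starts within Psmb9 on the opposite strand, had 18.6 and 16.4 CPM with C/EBPβ, against 1.10 and 0.989 CPM with the empty vector (log2 fold change 4.07, adjusted p = 2.53e-06). Tap2 had 51.8 and 44.1 CPM with C/EBPβ, against 12.5 and 8.84 CPM with the empty vector (log2 fold change 2.17, adjusted p = 0.000228). H2-DMa, a chaperone of class II peptide loading, had a log2 fold change of 1.30. H2-DMb1 had 54 and 32 fragments with C/EBPβ, against 1 and 0 with the empty vector, and H2-DMb2 had 29 and 22 with C/EBPβ, against 0 and 0 with the empty vector. Around Psme1 and Psme2 the picture differed: 1 of 10 tested genes within 50 kb rose, Psme1 itself, and none fell. Irf9, an interferon signalling factor in that window, had a log2 fold change of 0.08 (adjusted p = 0.609).

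**Figure D5:**
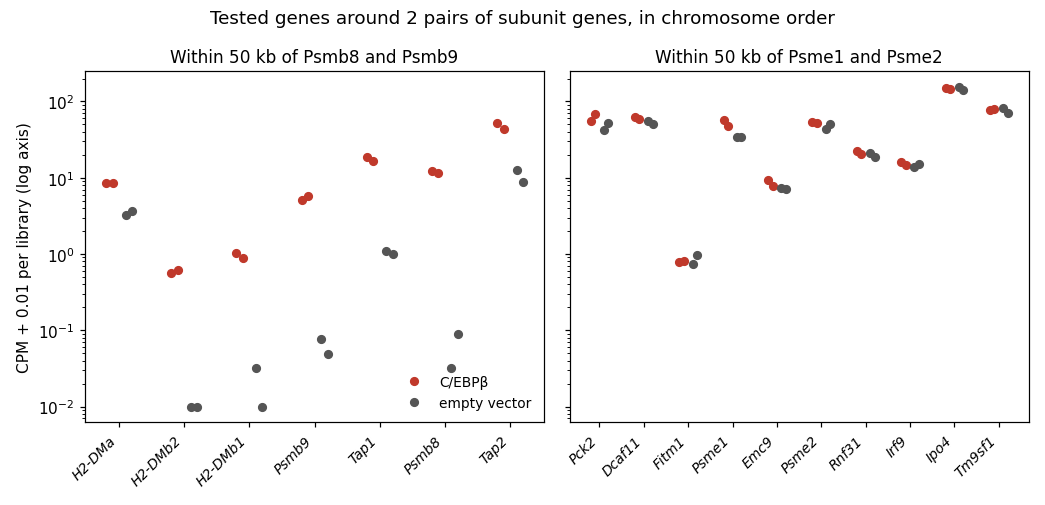
CPM plus 0.01 in each library, on a log axis, of the tested genes within 50 kb of Psmb8 and Psmb9 (left) and of Psme1 and Psme2 (right), in chromosome order. All 7 genes on the left are higher in both C/EBPβ libraries, and of the 10 on the right only Psme1 passed the test.

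Other genes of the pathway were taken from lists chosen with earlier results of these data known. Of 18 tested genes of class I antigen processing and the interferon axis, 15 rose and none fell. Among all genes tested 22.3% were called higher and 20.9% lower. The median log2 fold change of the 18 was 0.63 (all genes 0.01). Nlrc5, the class I transactivator, had 34.2 and 28.3 CPM with C/EBPβ, against 2.36 and 2.25 CPM with the empty vector (log2 fold change 3.76, adjusted p = 2.12e-06). B2m, the light chain of class I, had 1306 and 1244 CPM with C/EBPβ, against 321 and 353 CPM with the empty vector (1.92, adjusted p = 1.77e-05). Among signalling genes, the feedback inhibitor Socs1 was at 1.87 (adjusted p = 6.36e-05), Jak2 at 0.78 and Irf1 at 0.28 (adjusted p = 0.0267). Stat2, Irf9 and Pdia3, a folding enzyme of class I assembly, did not pass the test.

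Of 7 further proteasome parts, 3 fell and none rose: the ubiquitin receptor Adrm1 (-0.38) and the deubiquitinases Uchl5 (-0.39) and Usp14 (-0.43). Pomp, the maturation factor of the core, had a log2 fold change of -0.18 (adjusted p = 0.14). Of 6 tested regulators of proteasome genes, Nfe2l1, the factor that raises proteasome genes when the enzyme is inhibited, had 470 and 547 CPM with C/EBPβ, against 767 and 713 CPM with the empty vector (log2 fold change -0.54, adjusted p = 0.00719). Vcp, the segregase that also frees the Nfe2l1 protein from the membrane, was at -0.38 (adjusted p = 0.0249). Ngly1, which removes its sugars, rose by 0.23 (adjusted p = 0.0442), a call that was lost in 7 of 12 alternatives. Nfe2l2 had a log2 fold change of 0.05 (adjusted p = 0.687). Of 12 shuttle and segregase genes 5 fell, among them Ubqln4 (-0.55) and Rad23b (-0.51), and Faf2 rose (0.44). Of 6 ubiquitin and E1 genes Ubb rose (0.38, adjusted p = 0.0379) and none fell. Among all genes tested 20.9% were called lower and 22.3% higher, so counts of 1 or 2 in lists this short do not stand out. Left-out libraries changed several of these small counts. Without empty vector library 2, 1 of the 7 further parts was called lower, and without empty vector library 1, 3 of the 12 shuttle and segregase genes. Of the regulators, 1 was called lower without either empty vector library or without C/EBPβ library 1, and Ubb was not called in the same fits.

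The overexpressed gene was high in the libraries so labelled, with Cebpb at 472 ± 42.6 CPM with C/EBPβ and 42.0 ± 1.04 CPM with the empty vector (SD, n = 2 each). The libraries held 50493417 and 36461091 assigned fragments with C/EBPβ, against 45448661 and 51537847 with the empty vector. Muscle genes moved with the proteasome genes that fell: 8 of 8 markers were lower (median -1.46), where 20.9% of all genes were called lower. Their summed level was 4291 and 6661 CPM with C/EBPβ, against 15998 and 17323 CPM with the empty vector. Without either empty vector library, 5 of the 8 were called. The part of muscle genes in the fall of proteasome genes was not tested. The marker genes were 0.64 higher (median log2) in C/EBPβ library 2 than in library 1, and the 48 proteasome genes were 0.12 lower (median log2) in library 1 than in library 2 of each group. Markers of immune cells, which carry the immunoproteasome, were low in both groups. Of 8 macrophage markers 4 were tested, with 1 higher (Csf1r) and 1 lower (Itgam). The summed level of the 8 was higher with C/EBPβ, 4.48 and 4.46 CPM, against 3.59 and 3.44 CPM with the empty vector. Most of that sum was Cd68, which was not called (adjusted p = 0.0962, edgeR). It had 3.60 and 2.84 CPM with C/EBPβ, against 2.51 and 2.14 CPM with the empty vector. The calls of Csf1r and Itgam were lost without either empty vector library, with DESeq2 and with a filter at 1 CPM. That of Itgam was also lost without C/EBPβ library 1. Adgre1 and Fcgr1 had 0 fragments, Ptprc at most 1 in a library, and none of 6 lymphocyte and dendritic cell markers had enough fragments to be tested. The part of immune cells in the rise of Psmb8 and Psmb9 was not tested. Of 6 tested markers of fibro-adipogenic progenitors 2 were higher (Pdgfra and Pi16) and 1 lower (Lum), and their part was not tested.

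The authors' deposited table, whose normalised means do not match these 4 libraries alone, gave 3 of the 48 genes higher and 34 lower at the same threshold, where it gave 16.1% of all its genes higher and 20.9% lower. The call was the same for 45 genes and the sign for 47. The authors' deposited table gave log2 fold changes of 6.67 for Psmb8, 5.61 for Psmb9, 0.56 for Psme1 and -0.99 for Psmc3. It also called Psma6, Psma7 and Psmb4 lower, per the authors' deposited table, at -0.24, -0.31 and -0.30.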

How the data were processed

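Messenger RNA of 4 libraries was sequenced, 2 a group, with groups and replicate numbers from the sample titles. The authors deposited raw counts of fragments per gene; per the submitters' processing notes, HISAT2 2.0.4 made the alignments and featureCounts 1.4.6 the counts. The headers give the counter's version as 1.5.1, and show paired fragments assigned by reverse strand to GENCODE M12 genes (GRCm38) with no setting for fragments that fit several places, which the program then leaves out. The exon length of each gene also came from the deposited files. In the authors' table, per the file headers, each gene has a normalised mean signal, a log2 fold change and its log2 standard error, a score (the test statistic) and p-values before and after adjustment. DESeq2 is named in the submitters' processing notes.

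Of 49585 genes, 26401 had a fragment and 15886 passed filterByExpr (minimum count 10, minimum total 15); all 48 members passed. Counts were scaled by TMM and fitted with edgeR 4.0.16 (R 4.3.3), robust glmQLFit and 2-sided glmQLFTest on group alone, with Benjamini-Hochberg adjustment. Standard errors came from the F statistic. The biological coefficient of variation was 9.42%. Within groups, the chi-square per degree of freedom between libraries was 28.5 with C/EBPβ and 20.0 with the empty vector, so none was a copy. Whether a group's libraries are separate cultures is not labelled, and p-values cover only the spread between them, which may be technical. Intervals on ratios of fragments are exact binomial. On simulated counts of 15801 genes for this comparison, 65.7% of 1.5-fold, 89.6% of 2-fold and 92.4% of 4-fold changes were recovered, with 8 false among 173 calls. Every gene was simulated with that common coefficient of variation. Most falls of proteasome genes were below 1.5-fold, the smallest change simulated, so the recovery rates do not cover them. Shared sequence is the percent of a gene's 50-base transcript windows found in other genes (GENCODE M21).

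The members and gene lists were chosen with earlier results of these data known. The members to be given in full were the cutting subunits, the activators and, per role, up to 2 called members with the largest rise and fall, with 3 members of smallest p from each pathway list. Other genes, the promoter letters, the 50 kb windows and the coding stretches were chosen after values were seen. The value of 1 gene is not reported here, although counts of genes include it. Alternatives used median-ratio size factors, library totals, other filters, DESeq2 1.42.0, limma-voom (limma 3.58.1), no robust estimation, a replicate block and each library left out.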

Additional observations from a re-analysis of the deposited data

How the results depend on the processing

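Across 12 alternatives the count of proteasome genes that rose stayed at 3, and no gene among the 48 reversed in any call. The number of all genes called was 6864, and leaving out 1 library gave 4005 to 7414, 15 to 34 proteasome genes lower, 5 to 12 core subunits and 8 to 17 regulatory particle subunits; the lowest values, 4005, 15, 5 and 8, came without empty vector library 2, which leaves that group 1 library assumed to vary like the other group. Library totals alone lost Psmd5, Psmb2, Psmd9 and Psme3, and DESeq2 lost Psmd5 and Psmd9 and gained Psmb4. Those scalings moved the median of all genes by -0.01 (median-ratio factors) and 0.06 (library totals) on the log2 scale. Leaving out 1 library gave 1.29 to 1.52 for the log2 difference of immune to constitutive subunits. For that of core to regulatory particle it gave 0.21 to 0.27. The mean of pairwise ratios gave 5.44 for the first. For the second, the mean log2 RPKM gave 1.10 with the immune subunits in the core and 0.16 without them. With the replicate block 7677 genes were called, with 34 proteasome genes lower (Psma3, Psma7 and Psmb4 gained) and 3 higher. The labels do not tie equal numbers to a shared culture, batch or day, and deviations of same-numbered libraries correlated at 0.147 over genes; with 2 pairs this was not taken as pairing, and whether the libraries were paired was not settled. The empty vector level of Psmb8 and Psmb9 rests on 5 fragments each, so the size of their rise is limited by depth.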
